A study of Mus musculus with 12 samples.

Results

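The genes described here are 10 regulators of DNA methylation, taken by symbol from the 24411 genes in the tables of mouse blastocysts: Dnmt1, Dnmt3a, Dnmt3b, Dnmt3l, Tet1, Tet2, Tet3, Uhrf1, Trim28 and Zfp57. All 10 were found, and all 10 were among the 14743 genes counted deeply enough to be tested. Poly(A) RNA came from 12 pools of 10 blastocysts each, all of the genotype ICR_WT (wild type on the outbred ICR stock), in 6 groups of 2 libraries. Embryos were made from superovulated oocytes fertilized in vitro and were cultured to 96 hours post insemination (hpi). The labels separate the diets ND and HFD, which they do not spell out, and the series title speaks of normal weight and obese mice. Within each diet there were 3 treatments: control embryos (C), embryos electroporated as zygotes at 3 to 6 hpi with a non-targeting siRNA (siNT), and embryos electroporated then with an siRNA against Nampt (siNampt). Whether C embryos were electroporated without an siRNA, and the age of the mice, are not given in the sources used here. Replicates 1 and 2 carry the batch tags 1 and 2, so every group has 1 library per batch. Nothing in the labels says that different matings stood behind the pools, and the p-values here cover only pool-to-pool spread, which may be technical.

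DNA methylation marks cytosines that precede guanines (CpG sites). After fertilization most of it is lost, and the blastocyst is the stage near the lowest level, just before it is laid down again at implantation. Dnmt1 copies methylation to the new strand at replication, guided by Uhrf1, which reads hemimethylated DNA and unmodified histone tails. Dnmt3a and Dnmt3b set new marks with the help of Dnmt3l, which has no catalytic activity of its own. Tet1, Tet2 and Tet3 oxidise methylcytosine, the first step of active removal. Zfp57 binds a methylated motif at imprinted loci and recruits Trim28 (KAP1), which brings H3K9 methyltransferases, and together they keep imprints through the wave of loss.

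The 10 genes have 19 start sites with a promoter in the RefSeq table of GRCm38.p6 (the mm10 assembly), counted here as 250 bases before to 50 after the start. These promoters differ widely in CpG content, the sites these enzymes act on, so 3 are shown with each CG (the same on both strands) in capitals: the Tet2 promoter with the most CpG sites, a Dnmt3l promoter with few, and the Dnmt3b promoter between them.
Tet2 promoter, chr3:133544341-133544640, minus strand: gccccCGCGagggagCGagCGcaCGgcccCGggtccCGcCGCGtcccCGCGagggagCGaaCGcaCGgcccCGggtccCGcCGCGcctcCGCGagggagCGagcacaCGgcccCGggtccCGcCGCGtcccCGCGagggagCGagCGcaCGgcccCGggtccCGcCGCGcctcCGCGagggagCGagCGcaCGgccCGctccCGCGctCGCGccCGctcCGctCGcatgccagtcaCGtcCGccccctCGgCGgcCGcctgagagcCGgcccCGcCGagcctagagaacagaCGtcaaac
Dnmt3b promoter, chr2:153649199-153649498, plus strand: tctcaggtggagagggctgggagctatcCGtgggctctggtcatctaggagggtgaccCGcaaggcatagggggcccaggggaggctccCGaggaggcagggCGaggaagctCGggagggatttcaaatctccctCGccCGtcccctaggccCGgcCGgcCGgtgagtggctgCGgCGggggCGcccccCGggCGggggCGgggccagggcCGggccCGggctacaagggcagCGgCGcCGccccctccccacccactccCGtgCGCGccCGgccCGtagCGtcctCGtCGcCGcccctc
Dnmt3l promoter, chr10:78042037-78042336, plus strand: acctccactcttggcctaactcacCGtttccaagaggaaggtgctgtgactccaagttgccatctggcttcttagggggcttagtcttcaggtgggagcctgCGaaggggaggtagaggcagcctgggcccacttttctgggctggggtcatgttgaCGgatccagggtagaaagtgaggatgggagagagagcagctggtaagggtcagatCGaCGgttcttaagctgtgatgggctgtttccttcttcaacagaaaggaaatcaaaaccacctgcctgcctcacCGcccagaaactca
The Tet2 window holds 57 CG, a number reached by 0.152% of all 32851 promoters of this length, and is 81.3% G or C. The Dnmt3b window holds 30 CG, reached by 11.7% of promoters. The Dnmt3l window holds 6 CG, reached by 56.4%, and the other Dnmt3l windows hold 4 and 3. Zfp57 was low as well, with 4, 6 and 9 CG at its 3 start sites. Over all promoters the median was 7 CG and 94.6% held at least 1, against a median of 17 over the 19 windows of the 10 genes. Dnmt3a had 18, 46 and 47 CG, Trim28 had 23, Tet3 had 22 and Tet1 had 17. Dnmt1 and Uhrf1 each reached 33 at 1 start site and held fewer at the others, down to 2 for Dnmt1 and 12 for Uhrf1. These are counts of letters, and methylation itself was not measured in these samples. Dnmt3l and Tet1 both lie on chromosome 10, and Uhrf1 and Zfp57 on chromosome 17.

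Levels were compared between genes as TPM, RSEM's transcript abundance scaled for transcript length and library size. Dnmt3l was the most abundant of the 10, with a median of 62.2 TPM over the 12 libraries (49.3 to 72.7). Trim28 followed at 49.9 TPM (40.2 to 68.8) and Zfp57 at 37.6 TPM (20.5 to 50.4). Thus the cofactor without catalytic activity and the 2 imprint protectors stood above every DNA methyltransferase and TET enzyme by median. Dnmt3b was the most abundant enzyme at 31.2 TPM (21.6 to 41.0), followed by the Dnmt1 guide Uhrf1 at 13.6 TPM (9.98 to 20.6). Tet2 stood at 9.13 TPM (7.33 to 11.7), Dnmt3a at 3.49 TPM (2.22 to 5.51) and Tet1 at 2.94 TPM (2.06 to 4.56). Dnmt1 was low at 2.22 TPM (1.40 to 2.91), and Tet3 was lowest at 0.57 TPM (0.47 to 0.73), from 224 to 395 counts per library.

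**Figure D1:**
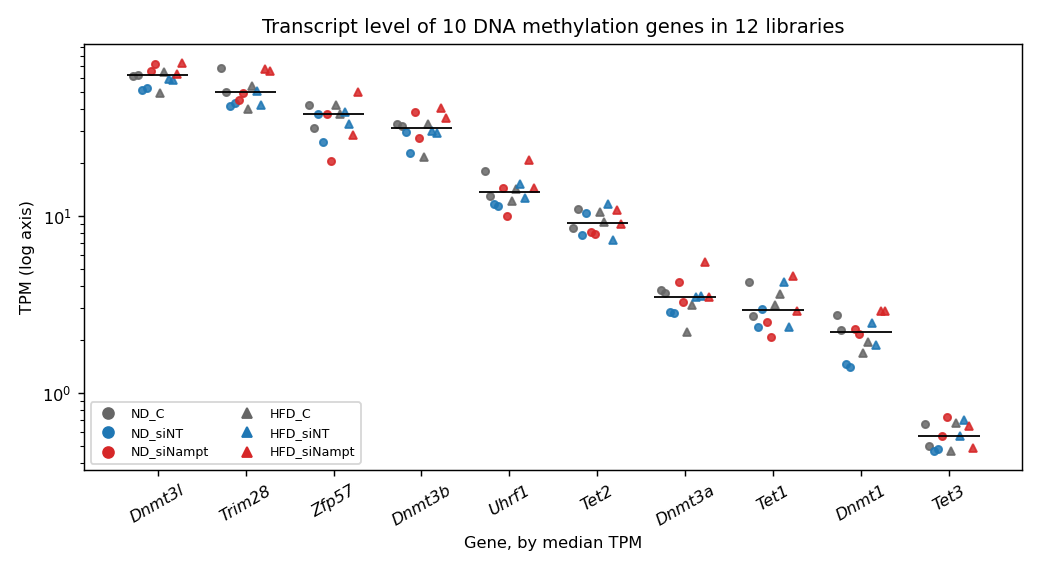
TPM on a log axis for each of the 10 genes, ordered by median, in 12 libraries. Colours are treatments, circles are ND, triangles are HFD and the bar is the median. Median levels run from 62.2 TPM for Dnmt3l to 0.57 TPM for Tet3. The ranges of the treatments overlap within each gene, with 1 exception. For Dnmt3l the 4 siNampt libraries (63.6 to 72.7 TPM) lie above the 4 siNT libraries (51.6 to 59.2 TPM), and C overlaps both.

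Most neighbours in this order overlapped. The ranges were separate only between Dnmt3b and Uhrf1, between Tet2 and Dnmt3a and between Dnmt1 and Tet3. Dnmt3l exceeded Trim28 in 10 of 12 libraries, Trim28 exceeded Zfp57 in 11, and Zfp57 exceeded Dnmt3b in 8. Uhrf1 exceeded Tet2 in 12 of 12 although their ranges overlapped. The order of Dnmt3a and Tet1 was the least regular, holding in 7 libraries, while Tet1 exceeded Dnmt1 in 10. The same order of medians was obtained from FPKM. FPKM differs from TPM by a single factor per library, so the order within a library could not change and this is no separate check.

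Within both enzyme families 1 gene made up most of the TPM, a measure that rests on the scaling for length. Dnmt3b made up 88.1 to 91.4% of the summed TPM of Dnmt3a and Dnmt3b in every library, with a median of 89.7%. Tet2 made up 63.6 to 77.4% of the summed TPM of the 3 TET genes (median 72.5%), Tet1 made up 19.11 to 31.42% and Tet3 3.33 to 6.85%. The lowest Tet2 share and the highest Tet1 share belonged to replicate 1 of ND_C, and the highest Tet2 share to replicate 2 of the same group. Uhrf1 stood 4.64 to 8.11 times above Dnmt1. The treatments and the diets overlapped in each of these measures. The ratio of Trim28 to Zfp57 was the widest, from 0.949 in replicate 1 of HFD_C to 2.42 in replicate 2 of ND_siNampt.

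**Figure D2:**
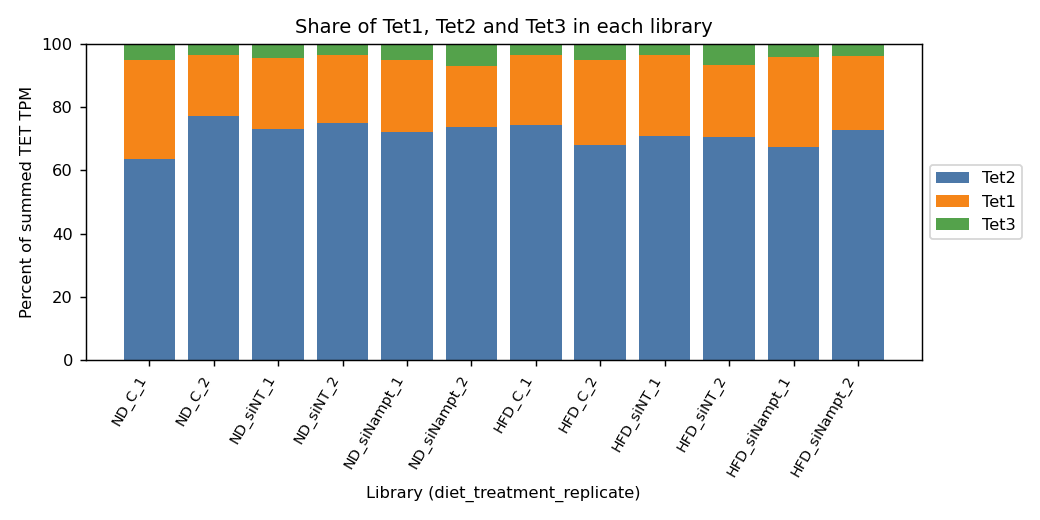
Percent of the summed TPM of Tet1, Tet2 and Tet3 in each of 12 libraries (stacked bars). Tet2 takes 63.6 to 77.4% in every library, and no treatment or diet stands apart.

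The tables also give for each gene the mean length of its transcripts, weighted by their abundance, so a shift in this value means a shift in which transcripts were assigned reads. For Dnmt3l, with 6 transcripts listed, it ran from 1442 bases in replicate 1 of HFD_siNampt to 1615 bases in replicate 2 of HFD_C, so the longest was 12% above the shortest. For Zfp57, with 4 transcripts, it ran from 2036 to 2219 bases (8.98%). For the other genes with several transcripts, Dnmt1, Dnmt3a, Dnmt3b, Tet1 and Uhrf1, the longest was at most 1.81% above the shortest. Tet2, Tet3 and Trim28 had 1 transcript each.

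The series asks about Nampt, the rate-limiting enzyme of NAD synthesis from nicotinamide, in early embryos. As a check of the labels, Nampt differed by -0.43 on the log2 scale between siNampt and siNT over both diets (SE 0.17, adjusted p = 0.396 by edgeR's quasi-likelihood test with Benjamini-Hochberg adjustment). In 4 of 4 pairs matched for diet and batch the siNampt library had less of it. Against C the difference was -0.21 (SE 0.17), and siNT itself stood 0.22 above C (SE 0.17). The ND libraries of siNampt, at 53.9 and 37.7 CPM, were close to those of C, at 54.2 and 38.2 CPM. Total counts per library were 42473129 to 50503064, and replicates of a group correlated at 0.964 to 0.972 across genes. Below, CPM are counts scaled to library size with TMM factors, used within a gene, and log2 fold changes (log2FC) come from edgeR's quasi-likelihood fit on all tested genes.

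None of the 10 genes passed an adjusted p of 0.05 in any of 8 comparisons, and neither did any other gene: the share called by edgeR's quasi-likelihood test with Benjamini-Hochberg adjustment was 0% in each. At an unadjusted p of 0.05, the shares of all genes were 11.2% for siNampt against siNT over both diets, 3.8% for siNampt against C, 4.4% for siNT against C and 3.22% for HFD against ND over all treatments. Of the 10 genes, 0 reached that level in these 4. The number of genes behind these shares moved with single libraries and settings. For siNampt against siNT it was 1645, with 617 under the replicate block and Y-linked covariate and 2220 without replicate 1 of HFD_siNampt. For siNampt against C it was 560 (346 without replicate 1 of HFD_C, 966 without replicate 1 of HFD_siNampt), and for siNT against C 648 (365 without replicate 2 of ND_C, 1177 without replicate 1 of HFD_C). The shares were 8.34% for siNampt against siNT in ND, 4.27% for the same in HFD, 3.06% for the interaction of knockdown and diet, and 2.81% for HFD against ND in C. Here 1 gene reached it in 1 comparison, Trim28 in HFD. In HFD the count of all genes was 630, with 264 without replicate 2 of HFD_siNT and 1242 without replicate 1 of HFD_siNampt. For every gene, the CPM ranges of the treatments overlapped, as did those of the diets. By TPM those of siNampt and siNT were apart for Dnmt3l, and the share of all genes apart in this way was not counted. The comparisons of treatments share libraries (siNT, siNampt and C each enter 2), so their values are given side by side and are not independent. The same holds for the counts of pairs. The share of all genes with all pairs in 1 direction was not counted. In pooled whole embryos, fewer cells of a type and less RNA per cell cannot be told apart.

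**Figure D3:**
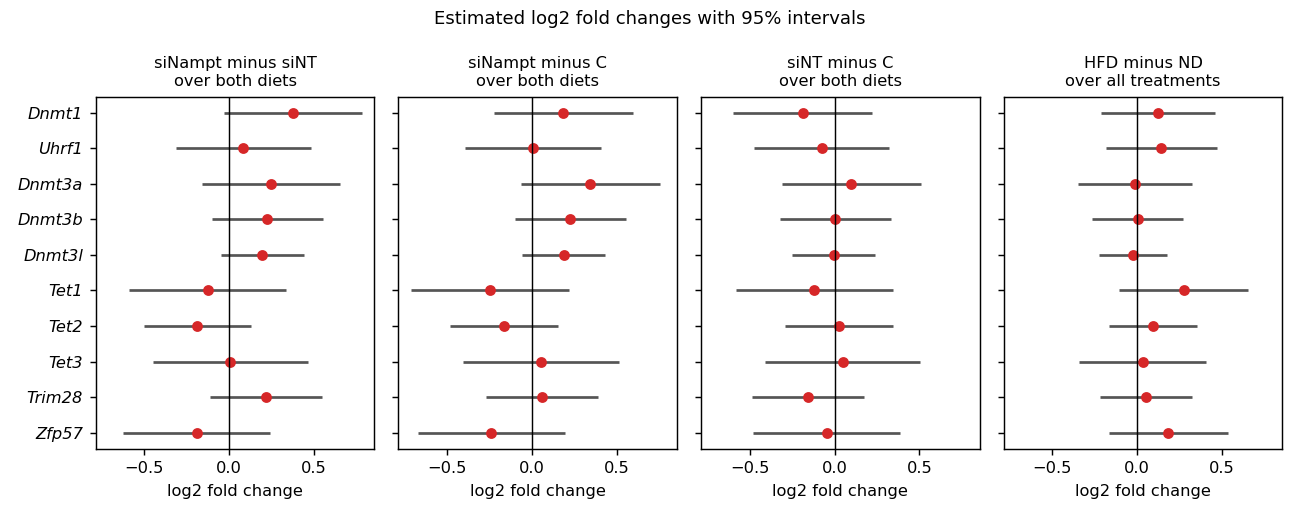
Estimated log2 fold changes (points) with 95% intervals (lines) for the 10 genes in 4 comparisons. The interval includes 0 for each gene in each panel, and for siNampt against siNT it comes closest to leaving it out for Dnmt1, with a lower limit of -0.03.

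The maintenance pair came first. Dnmt1, the copying enzyme, stood at 8.48 and 8.03 CPM in ND_siNT and 12.3 and 10.6 CPM in HFD_siNT (replicates 1 and 2). The siNampt libraries read 11.8 and 10.8 CPM (ND) and 14.8 and 13.6 CPM (HFD). In C it stood at 14.3 and 11.2 CPM in ND and 9.12 and 9.74 CPM in HFD. Each siNampt library was above the siNT library of its diet and batch (4 of 4 pairs), yet the arms overlapped because HFD_siNT reached into the range of ND_siNampt, and C overlapped both. The log2FC for siNampt against siNT was 0.37 (SE 0.19, 95% interval -0.03 to 0.78, adjusted p = 0.482, edgeR's quasi-likelihood test with Benjamini-Hochberg adjustment). It was 0.37 within batch 1 and 0.39 within batch 2 as means of pairs. Against C the log2FC was 0.19 (SE 0.19), with 2 of 4 pairs higher, and siNT against C gave -0.19 (SE 0.19). When each library was left out in turn, the value against C ran from 0.06 without replicate 1 of HFD_C to 0.36 without replicate 1 of ND_C, and that of siNT against C from -0.32 to -0.01 without the same libraries. The value against siNT ran from 0.30 to 0.49. With a GC and length correction, estimated from log2 CPM and entered as an offset in the fit on counts, the value against siNT was 0.18.

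Uhrf1, which guides Dnmt1 to hemimethylated sites, was read at 42.3 and 40.7 CPM in ND_siNT, 46.7 and 45.0 CPM in HFD_siNT, 46.1 and 31.6 CPM in ND_siNampt and 66.2 and 42.1 CPM in HFD_siNampt. In C it was 57.9 and 40.0 CPM in ND and 40.5 and 44.7 CPM in HFD. The siNampt libraries thus included both the highest and the lowest value of all 12, and batches 1 and 2 gave 0.31 and -0.23 for siNampt against siNT. The pooled log2FC was 0.08 (SE 0.19) against siNT and 0.01 (SE 0.19) against C.

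Among genes that set new marks, Dnmt3b, the main de novo enzyme by TPM, stood at 132 and 99.7 CPM in ND_siNT, 114 and 128 CPM in HFD_siNT, 153 and 108 CPM in ND_siNampt and 162 and 131 CPM in HFD_siNampt. In C it was 132 and 123 CPM in ND and 90.2 and 128 CPM in HFD. All 4 siNampt libraries were above their siNT partner, by 0.03 to 0.50 on the log2 scale. The log2FC was 0.22 (SE 0.15, adjusted p = 0.595, edgeR's quasi-likelihood test with Benjamini-Hochberg adjustment), and 0.23 (SE 0.15) against C, where 3 of 4 pairs were higher. As means of pairs, batches 1 and 2 gave 0.36 and 0.07 against siNT. Against C they gave 0.53 and -0.08, so the sign did not hold within batches there. Leaving out single libraries gave 0.13 (without replicate 1 of HFD_siNampt) to 0.34 against siNT and 0.10 (without replicate 1 of HFD_C) to 0.34 against C, both upper ends without replicate 2 of ND_siNampt. With the GC and length correction the value against siNT was 0.04.

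Dnmt3l, the cofactor, varied least of the 10 (SD of log2 CPM 0.15 over 12 libraries). It stood at 76.0 and 74.9 CPM in ND_siNT, 75.8 and 84.3 CPM in HFD_siNT, 91.0 and 94.6 CPM in ND_siNampt and 78.3 and 92.0 CPM in HFD_siNampt. In C it was 80.8 and 77.6 CPM in ND and 65.4 and 88.6 CPM in HFD. The siNampt library was the higher one in 4 of 4 pairs against siNT and, with the same siNampt libraries, in 4 of 4 against C. By CPM, however, replicate 1 of HFD_siNampt lay below 1 library of siNT and 2 of C. By TPM siNampt (63.6 to 72.7) and siNT (51.6 to 59.2) did not overlap, and C (49.3 to 64.9) overlapped both. TPM is scaled for transcript length, and replicate 1 of HFD_siNampt had the shortest weighted length of Dnmt3l, 1442 bases. The share of all genes apart by TPM was not counted. The log2FC was 0.19 (SE 0.11, 95% interval -0.05 to 0.44, adjusted p = 0.540) against siNT and 0.19 (SE 0.11, adjusted p = 0.999) against C by edgeR's quasi-likelihood test with Benjamini-Hochberg adjustment. Omitting 1 library left 0.17 to 0.25 against siNT, and against C 0.11 without replicate 1 of HFD_C to 0.27 without replicate 2.

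Dnmt3a, the other de novo enzyme, was more uneven: 28.2 and 27.6 CPM in ND_siNT, 29.3 and 33.9 CPM in HFD_siNT, 36.7 and 28.2 CPM in ND_siNampt, and 48.1 and 28.1 CPM in HFD_siNampt. In C it was 33.7 and 30.7 CPM in ND and 20.4 and 26.5 CPM in HFD. Replicate 1 was high in both siNampt groups and replicate 2 was at the level of siNT. The log2FC was 0.25 (SE 0.19) against siNT and 0.34 (SE 0.19) against C, with adjusted p of 0.648 and 0.999 by edgeR's quasi-likelihood test with Benjamini-Hochberg adjustment. Against siNT it did not hold within batches, being 0.55 in batch 1 and -0.12 in batch 2, and without replicate 1 of HFD_siNampt the pooled value was 0.02 against siNT and 0.14 against C. Without replicate 2 of ND_siNampt these were 0.35 and 0.46.

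The log2FC of the 3 TET genes for siNampt against siNT lay between -0.19 and 0.01. Tet2, the most abundant of them, stood at 78.4 and 104 CPM in ND_siNT, 101 and 72.8 CPM in HFD_siNT, 72.3 and 69.6 CPM in ND_siNampt and 97.7 and 74.4 CPM in HFD_siNampt. In C it was 77.04 and 94.0 CPM in ND and 99.4 and 80.4 CPM in HFD. Each siNampt library was below its C partner (4 of 4), and 3 of 4 were below their siNT partner, with wide overlap between arms. The log2FC was -0.19 (SE 0.15, adjusted p = 0.653) against siNT and -0.16 (SE 0.15, adjusted p = 0.999) against C by edgeR's quasi-likelihood test with Benjamini-Hochberg adjustment. Without replicate 1 of HFD_siNampt these were -0.30 and -0.28, and the values nearest 0 were -0.07 without replicate 2 of ND_siNT and -0.10 without replicate 2 of ND_C.

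Tet1, which is known for high expression in pluripotent cells, had the largest spread of the 10 genes (SD of log2 CPM 0.36). It was 37.1 and 46.0 CPM in ND_siNT, 56.4 and 36.0 CPM in HFD_siNT, 35.0 and 28.1 CPM in ND_siNampt, 63.3 and 36.8 CPM in HFD_siNampt, 58.9 and 35.9 CPM in ND_C and 45.9 and 49.1 CPM in HFD_C. High and low libraries occurred in every treatment. The log2FC was -0.13 (SE 0.22) against siNT and -0.25 (SE 0.22) against C. Without replicate 1 of HFD_siNampt these were -0.38 and -0.50, and the values nearest 0 were -0.0021 without replicate 2 of ND_siNampt and -0.05 without replicate 1 of ND_C. Summed TPM of 4 Y-linked genes (Ddx3y, Eif2s3y, Kdm5d and Uty) ran from 34.8 to 174 in siNampt, 83.4 to 184 in siNT and 54.9 to 154 in C, and the labels give no sex of the embryos. All 4 were lower in siNampt than in siNT by log2FC (median -0.95, 2 under an unadjusted p of 0.05) and lower than in C (median -0.75, 0 under it). With the mean log2 CPM of these genes as a covariate the values for Tet1 turned to 0.24 and 0.055. The 5 genes whose log2 CPM followed Tet1 most closely over 12 libraries, among 8483 genes whose mean was 5 CPM or more, were Epha4 (r = 0.94), Pik3ca (0.93), Hiatl1 (0.89), Rnf44 (0.89) and 4932438A13Rik (0.88), a description without a test.

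Tet3, the oocyte and zygote form, lay between 4.82 and 8.28 CPM. Both ends were in HFD, the lowest in replicate 2 of HFD_siNampt and the highest in replicate 2 of HFD_siNT. Its log2FC was 0.01 (SE 0.21) against siNT and 0.05 (SE 0.21) against C.

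Of the imprint protectors, Trim28 stood at 142 and 147 CPM in ND_siNT, 149 and 141 CPM in HFD_siNT, 137 and 148 CPM in ND_siNampt and 205 and 183 CPM in HFD_siNampt. Both HFD_siNampt libraries were above all 4 siNT libraries, and both ND_siNampt libraries were near them. In C it was 210 and 145 CPM in ND and 128 and 160 CPM in HFD, so that 1 C library was higher still. The log2FC for siNampt against siNT in HFD was 0.42 (SE 0.18, 95% interval 0.03 to 0.81, adjusted p = 0.924), and in ND it was -0.02 (SE 0.18), by edgeR's quasi-likelihood test with Benjamini-Hochberg adjustment. The difference between diets was 0.44 (SE 0.26, adjusted p = 1). With the GC and length correction the HFD value was 0.05. Over both diets Trim28 gave 0.21 (SE 0.15) against siNT and -0.13 with that correction. Against C it gave 0.06 (SE 0.16), and siNT against C gave -0.15 (SE 0.15), or 0.03 without replicate 1 of ND_C. The value against siNT was 0.11 without replicate 1 of HFD_siNampt.

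Zfp57, the imprint reader, stood at 80.5 and 58.8 CPM in ND_siNT, 70.6 and 68.4 CPM in HFD_siNT, 69.0 and 36.8 CPM in ND_siNampt, 54.1 and 85.9 CPM in HFD_siNampt, 79.1 and 57.5 CPM in ND_C and 83.4 and 68.5 CPM in HFD_C. Replicate 2 of ND_siNampt was the lowest of 12 and replicate 2 of HFD_siNampt the highest. The log2FC was -0.19 (SE 0.20) against siNT and -0.24 (SE 0.20) against C. Without replicate 2 of ND_siNampt these became -0.01 and -0.06, and without replicate 2 of HFD_siNampt they became -0.37 and -0.42. Its closest genes over the 12 libraries were Gatad1 (r = 0.88), Arhgap11a (0.87), Morc1 (0.86), Slc25a4 (0.86) and Amacr (0.85), again a description.

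As a group, 7 of the 10 genes had a log2FC above 0 and 3 below for siNampt against siNT, with a median of 0.14, beside 52.8% above 0 and a median of 0.03 over all tested genes. All 4 DNA methyltransferase family genes were among the 7. The group median was -0.08 with the GC and length correction and -0.01 without replicate 1 of HFD_siNampt. Against C the group also split 7 to 3, with a median of 0.06, and siNT against C split 4 to 6, with a median of -0.03. Replicate 1 of HFD_siNampt held the highest CPM of 5 genes (Dnmt1, Dnmt3a, Dnmt3b, Tet1 and Uhrf1). Replicate 2 of ND_siNampt held the lowest of 4 (Tet1, Tet2, Uhrf1 and Zfp57), and replicate 1 of HFD_C the lowest of 4 others (Dnmt3a, Dnmt3b, Dnmt3l and Trim28).

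**Figure D4:**
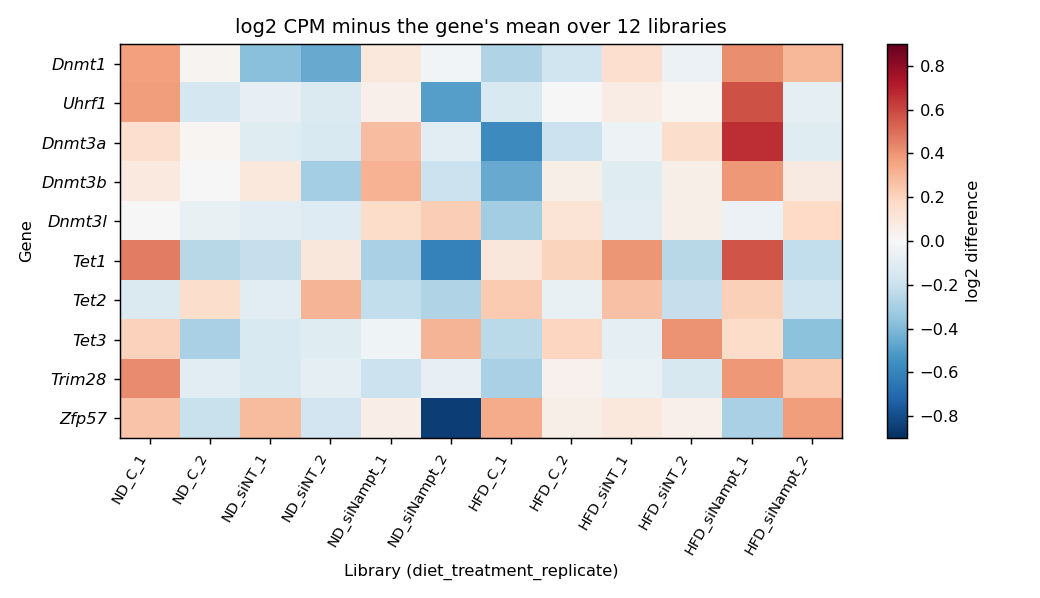
Log2 CPM of each gene minus its mean over 12 libraries (colour, red above and blue below the mean), by library. Replicate 1 of HFD_siNampt is the highest library for 5 genes, and replicates 1 and 2 of a group often differ in colour.

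The diets were compared next. For HFD against ND over all treatments, 8 of 10 genes lay above 0 with a median of 0.07, beside 50.8% and a median of 0.003 over all genes. The largest value was Tet1 at 0.27 (SE 0.18), followed by Zfp57 at 0.18 (SE 0.17), Uhrf1 at 0.14 (SE 0.15) and Dnmt1 at 0.12 (SE 0.16), and the other 6 lay between -0.03 and 0.09 with SE of 0.09 to 0.18. The lowest unadjusted p was 0.146, for Tet1, by edgeR's quasi-likelihood test. Within batches Tet1 gave 0.37 and 0.16 as means of pairs, whereas Zfp57 gave -0.16 in batch 1 and 0.56 in batch 2, and Tet2 gave 0.39 and -0.21. When 1 library was left out, Tet1 ran from 0.11 and Uhrf1 from 0.01 (both without replicate 1 of HFD_siNampt) to 0.41 and 0.26 (both without replicate 1 of ND_C). Zfp57 ran from 0.06 without replicate 2 of ND_siNampt to 0.27 without replicate 1, and Dnmt1 from 0.05 without replicate 1 of HFD_siNT to 0.23 without replicate 1 of ND_C. In C alone the split was the other way, 4 above and 6 below 0, with a median of -0.12. There HFD against ND gave -0.46 (SE 0.25) for Dnmt3a and -0.44 (SE 0.22) for Dnmt1, the 2 largest of the 10, with adjusted p of 1 by edgeR's quasi-likelihood test with Benjamini-Hochberg adjustment.

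The surrounding pathway was read from 8 lists with 124 tested genes, and none of these passed the adjusted threshold in any comparison. At an unadjusted p under 0.05 were 12 of them (9.68%) for siNampt against siNT, 9 (7.26%) for siNampt against C, 4 (3.23%) for siNT against C and 3 (2.42%) for HFD against ND, beside 11.2%, 3.8%, 4.4% and 3.22% of all genes. For siNampt against siNT, where 11.2% of all genes had an unadjusted p under 0.05, 2 of 11 maintenance partners did, Pcna, the replication clamp, at -0.31 (SE 0.10) and Cdk1, a cell cycle kinase, at -0.31 (SE 0.12). The median over the 11 partners was -0.03, beside 0.37 for Dnmt1. Dppa3 (Stella), which keeps Uhrf1 from chromatin in the oocyte, was the most abundant partner at a median of 4339 TPM. Against C, where the share of all genes was 3.8%, the partners at that level were Hells, a chromatin remodeler needed for methylation, at -0.36 (SE 0.13) and Cdk1 at -0.26 (SE 0.12).

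Of 14 tested genes for excision of oxidised or deaminated cytosine, 3 were under 0.05 against siNT. Apobec1, a cytidine deaminase, was the farthest at -1.66 (SE 0.39, adjusted p = 0.396 by edgeR's quasi-likelihood test with Benjamini-Hochberg adjustment). Apobec1 is a low gene, with siNT libraries at 2.04 and 1.45 CPM (ND) and 1.35 and 0.98 CPM (HFD) and siNampt libraries at 0.52 and 0.45 CPM (ND) and 0.30 and 0.53 CPM (HFD). These 2 arms did not overlap, and the share of all genes apart in this way was not counted. C lay between 0.41 and 1.21 CPM and overlapped both, with a log2FC of -0.86 (SE 0.39) for siNampt against C. Polb, a repair polymerase, was at -0.29 (SE 0.12), and Xrcc1, a repair scaffold, at 0.56 (SE 0.26). Tdg, the glycosylase that removes oxidised methylcytosine, was not among them, and the list median was 0.12.

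In the other lists few genes reached that level for siNampt against siNT. Of 10 methyl-CpG binding proteins 1 did, Zbtb33 (Kaiso) at 0.43 (SE 0.19). Of 16 genes of the methyl donor cycle 1 did, Shmt1, which feeds the folate pool, at 0.42 (SE 0.16). Of 17 genes of H3K9 methylation and zinc finger repression 2 did, Daxx at 0.40 (SE 0.17) and Fam208a, part of the HUSH complex, at -0.32 (SE 0.14). Of 13 TET partners and enzymes of 2-oxoglutarate supply 0 did. The medians of these 4 lists were 0.08, 0.13, -0.06 and 0.04.

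Genes that DNA methylation is known to silence, on both alleles or on 1 parental allele, were read as well. Of 16 germline genes silenced by promoter methylation, 2 were under 0.05 against siNT, Tdrkh at -0.44 (SE 0.17) and Sycp1 at -1.01 (SE 0.44), and the list median was -0.12. Several were abundant at this stage, Sycp3 at a median of 396 TPM, while Taf7l was near 0 with 0.03 TPM. Of 27 tested imprinted genes 1 was under 0.05, Airn at -0.89 (SE 0.35), and the list split 12 above and 15 below 0. Airn runs antisense to Igf2r and the strand setting of the counting is not given, so their reads may not be told apart. Against C, 4 of 27 imprinted genes were under 0.05, where 3.8% of all genes were: Kcnq1ot1 at -0.47 (SE 0.17), Gnas at 0.30 (SE 0.11), Peg10 at 0.71 (SE 0.28) and Nnat at 1.56 (SE 0.63). The germline gene Stk31 at -0.57 (SE 0.19) and Atrx, of the H3K9 list, at -0.28 (SE 0.12) were under it as well. For HFD against ND over all treatments the imprinted list split 18 above and 9 below 0 with a median of 0.21. Over all tested genes 50.8% lay above 0, with a median of 0.003. In this comparison 1 imprinted gene was under 0.05, Kcnq1ot1 at 0.42 (SE 0.14). The other 2 under it in the 8 lists were Hormad1, a germline gene, at -0.92 (SE 0.31) and Atrx at 0.24 (SE 0.10). In C alone the imprinted list split 15 above and 12 below 0 for HFD against ND, with a median of 0.04. For siNT against C, 4 of the 124 genes were under 0.05, a share below that of all genes (4.4%): Tdrkh at 0.51 (SE 0.17), Tex19.1 at -0.37 (SE 0.14), Nnat at 1.52 (SE 0.65) and Bhmt2, of the methyl donor cycle, at -0.86 (SE 0.32). The values of Tdrkh against siNT and against C have siNT in common, and the 2 values of Nnat against C have C in common. For siNampt against siNT Nnat gave 0.05 (SE 0.64). It was a low gene at 0.08 to 1.2 TPM, as was Kcnq1ot1 at 0.24 to 0.52 TPM.

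Markers of the blastocyst lineages were present in every library, with 9 of 9 trophectoderm, 9 of 9 inner cell mass and 9 of 9 primitive endoderm genes above 0 TPM. Summed trophectoderm TPM ran from 3415 to 5207 in siNampt, 2768 to 3591 in siNT and 3025 to 3814 in C. For siNampt against siNT, where 11.2% of all genes had an unadjusted p under 0.05, 3 of the 9 did and were higher. These were Krt8 at 0.32 (SE 0.10), Krt18 at 0.39 (SE 0.13) and Tead4 at 0.41 (SE 0.16), while Elf5 at -0.34 (SE 0.50) and Gata2 at -0.02 (SE 0.16) were lower. In ND the 9 split 9 to 0 with 3 under 0.05, beside 8.34% of all genes. In HFD they split 6 to 3 with 0 under it, beside 4.27%. Against C 9 of 9 had a log2FC above 0, beside 51.1% of all genes, and 2 were under 0.05, beside 3.8%. The trophectoderm sums of siNampt overlapped those of both other arms. So did the inner cell mass sums, at 420 to 583, 415 to 484 and 446 to 475 TPM in the same order. In ND, 7 of 9 inner cell mass genes were lower in siNampt than in siNT by log2FC. There 2 of them were under 0.05, beside 8.34% of all genes, Sox2 at -0.9996 (SE 0.38) and Esrrb at -0.94 (SE 0.42). In HFD 5 of the 9 were higher and 4 lower, with 0 under 0.05. Over both diets 0 of the 9 were under it against siNT or against C. The part of lineage makeup in the values of the 10 genes was not tested. Oocyte markers summed to 1.15 to 4.80 TPM and sperm markers to 1.67 to 5.29 TPM, with Tnp1 and Smcp at 0 in all libraries. Of 9 cumulus cell markers only Serpine2 was above 0 in every library, at 65.7 to 164 TPM. The next highest reached 0.44 TPM (Has2) and 0.12 TPM (Inha). The sums of this list, nearly all Serpine2, ran from 65.8 to 106.9 TPM in siNT, 107.8 to 146.9 TPM in C and 88.2 to 164 TPM in siNampt. Thus siNT lay just below C, at 106.9 against 107.8 TPM where they came closest, and the share of all genes apart in this way was not counted. Serpine2 gave -0.46 (SE 0.20) for siNT against C, and Has2 gave 3.45 (SE 1.34) for HFD against ND, both under an unadjusted p of 0.05. The shares of all genes under it were 4.4% and 3.22% in these comparisons. Serpine2 alone cannot tell which cells it came from, and any part of cumulus cells in the values of the 10 genes was not tested.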

How the data were processed

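RNA of 12 pools of blastocysts was read from 1 deposited table per library, made with a SMART-Seq v4 PLUS kit per the labels' protocols. STAR 2.7.10, RSEM 1.2.28 and mm10 are named in the submitters' processing notes, and other settings are not given in the sources used here. Per the file headers, the deposited values are RSEM's expected count, TPM, FPKM and the gene length in bases. Values with a fractional part (6.43% of the expected counts) were rounded. Genes were filtered with filterByExpr (minimum count of 10), scaled by TMM and tested in edgeR 4.0.16 (R 4.3.3) by two-sided quasi-likelihood tests, with Benjamini-Hochberg adjustment over 14743 genes and adjusted p under 0.05 as the limit. Each fit used all 12 libraries. The 4 pooled comparisons came from diet plus treatment as additive terms, and the other 4 from group means. SE is the absolute log2FC divided by the square root of F. TPM served to compare genes, and their order was also read from FPKM, which keeps the order within a library.

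The 10 genes and the gene lists were chosen with earlier results of these data known. Named in each list are up to 2 genes of smallest unadjusted p under 0.05. Xrcc1, Tead4, Inha, Peg10, Nnat, Dppa3, Sycp3, Taf7l, Tdg and the largest values of HFD against ND in C were named after their values were seen. The list gene Resf1 was not used here because its symbol was not matched.

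The batch tag equals the replicate number and so pairs libraries across groups. The difference between replicates 1 and 2, correlated across genes between groups, gave r of -0.06 to 0.22 with a median of 0.09 over 15 pairs of groups. The median SE of the log2FC of siNampt against siNT was 0.157 for genes of at least 5 CPM. Other settings tried were no filter, 5 CPM in at least 2 libraries, DESeq2 1.42.0, RLE size factors, the replicate block, limma 3.58.1 on log2 TPM with a pseudocount of 1 (computed from the deposited TPM), only the groups compared, a Y-linked covariate with and without the block, a GC and length correction (loess, span 0.5, GC known for 99.2% of genes), and leaving out each library. The method was tested on simulated data.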

Additional observations from a re-analysis of the deposited data

Results flagged for a closer look

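In 50 sets of libraries (10 genes in each of 3 treatments and 2 diets) the highest and lowest CPM were compared with their neighbours by Dixon's criterion, which chance meets in about 1 in 20 sets. It was met in 4. Among the 4 siNT libraries, replicate 2 of HFD_siNT stood apart for Dnmt3l at 84.28 CPM, with the others at 74.93 to 76.02. The same library stood apart for Tet3 at 8.276 CPM, with the others at 5.654 to 5.859. Among the 6 HFD libraries, replicate 1 of HFD_siNampt stood apart for Uhrf1 at 66.25 CPM, with the others at 40.51 to 46.71. Among the 6 ND libraries, replicate 1 of ND_C stood apart for Trim28 at 209.9 CPM, with the others at 136.8 to 148.3.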

How the results depend on the processing

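Values under the 22 alternatives were kept for genes more than 0.1 from 0 in the 4 pooled comparisons, and for Trim28 in HFD. None of these passed an adjusted p of 0.05 under any alternative. For the other genes and comparisons the adjusted p under the alternatives was not read. Over all genes the count past it was 0 by edgeR's quasi-likelihood test. By DESeq2 it was 1 for siNampt against siNT over both diets, 2 for siNampt against C, 2 for siNT against C, 2 for HFD against ND, 2 for siNampt against siNT in HFD and 7 for HFD against ND in C. With no filter the counts were 119, 71, 76 and 99 in the first 4 of these, 108 and 68 for siNampt against siNT in ND and HFD, 40 for the interaction and 80 for HFD against ND in C. Fitting only the groups compared gave 2 for HFD against ND in C, and leaving out 1 library gave 0 to 1 for HFD against ND over all treatments. The replicate block gave 0 in each comparison, left Dnmt1 at 0.38 for siNampt against siNT and changed no call. Tet1 turned to 0.24 for siNampt against siNT and 0.055 against C with the Y-linked covariate, and to 0.15 in the first with the replicate block and that covariate together. Trim28 turned to -0.13 for siNampt against siNT with the GC and length correction. For siNT against C, leaving out 1 library gave -0.22 to 0.091 for Tet1 and -0.27 to 0.03 for Trim28, the positive ends without replicate 1 of ND_C. The cause was not tested. Of 18 values within 0.1 of 0 in the 4 pooled comparisons, 17 changed sign under some alternative. FPKM and CPM per kilobase gave the same order of the 10 genes, but they rest on the same counts and lengths as TPM, so the order could hardly change. The number of pools limits the precision.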
